A study of Mus musculus with 2 samples.

Results

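The small leucine-rich proteoglycans and stromal matrix genes described here are 10 genes named by symbol: Dcn, Lum, Bgn, Prelp, Fmod, Ogn, Aspn, Dpt, Postn and Sparcl1. Every RefSeq transcript line that mapped to these symbols was taken, which gave 14 lines, and the 10 genes stand among 23123 gene symbols in the files. The genes were proposed with the values of these libraries known, so the difference between the libraries is given as a description. The study profiled the RNA of medullary thymic epithelial cells (mTEC), which show self antigens to developing T cells in the medulla of the thymus. Cells with high surface MHC class II (mTEChi) and with low surface MHC class II (mTEClo) were sorted by flow cytometry from thymi of wild-type B6 mice, which were pooled. The labels give no transgene or treatment for either group, and the age of the mice and the number of thymi are not given in the sources used here. Each group gave 1 library, so no difference has a replicate check and no test was made. Sequencing used paired reads of 100 bases for mTEChi and unpaired reads of 50 bases for mTEClo, so read type and group cannot be told apart.

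Small leucine-rich proteoglycans are secreted proteins with a curved core of leucine-rich repeats, most of which bind collagen and set the width and spacing of its fibrils. Many carry chondroitin, dermatan or keratan sulfate chains, and decorin and biglycan also bind TGF-beta. Fibroblasts and other mesenchymal cells are their main source in most tissues. In the thymus, mesenchymal cells form the capsule, the septa and the sheath of blood vessels, close to the epithelium of the medulla. Dermatopontin (Dpt), periostin (Postn) and SPARC-like 1 (Sparcl1) are not leucine-rich proteoglycans but secreted proteins of the same matrix.

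The deposited values are RPKM, that is reads divided by the length of the transcript and by the depth of the library, so levels can be compared between genes. Their steps gave a depth of about 115000000 counted reads in the mTEChi and 20900000 in the mTEClo library, and 2815 against 8637 of 30794 lines were listed at 0. The labelled cell type was checked on 12 mTEC markers, and 0 of them were at 0 in either library. Epcam had 198 RPKM in the mTEChi and 127 RPKM in the mTEClo library, and Aire, the regulator of self-antigen expression, had 122 against 15.9 RPKM. H2-Aa, a chain of MHC class II, had 4908 against 1524 RPKM, which goes with the sort.

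All 10 matrix genes were listed above 0 in both libraries and all had a mean of 0.5 RPKM or more, the level above which genes were kept. Together they summed to 45.8 RPKM in the mTEChi and 996 RPKM in the mTEClo library, or 0.0134% and 0.318% of the sum over all genes. Log2 changes compare mTEChi with mTEClo after adding 1 RPKM to each value, with mTEClo first multiplied by 1.21, a factor that centres the log2 ratios of 5167 well-expressed genes on 0. A log2 change of -1, or 2-fold, was the threshold. By this rule 8 of 10 members were lower in the mTEChi library, 0 were higher, and 2 (Ogn and Aspn) lay between. Over all 15590 kept genes 9.35% were at least 2-fold lower and 16.1% at least 2-fold higher, and since the members were chosen on this contrast nothing is read from the difference. Calls in the higher direction made up 63.3% of all calls, a share that was 74.9% without scaling, 80.4% after matching the upper quartiles and 55.1% with a filter of 5 RPKM. The median log2 change was -4.37 over the members and 0.03 over all kept genes. Folds given below are ratios of RPKM after the same scaling and without the added 1 RPKM. Their 95% intervals are exact binomial (Clopper-Pearson) intervals on reads recovered from the values and cover counting error only.

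**Figure D1:**
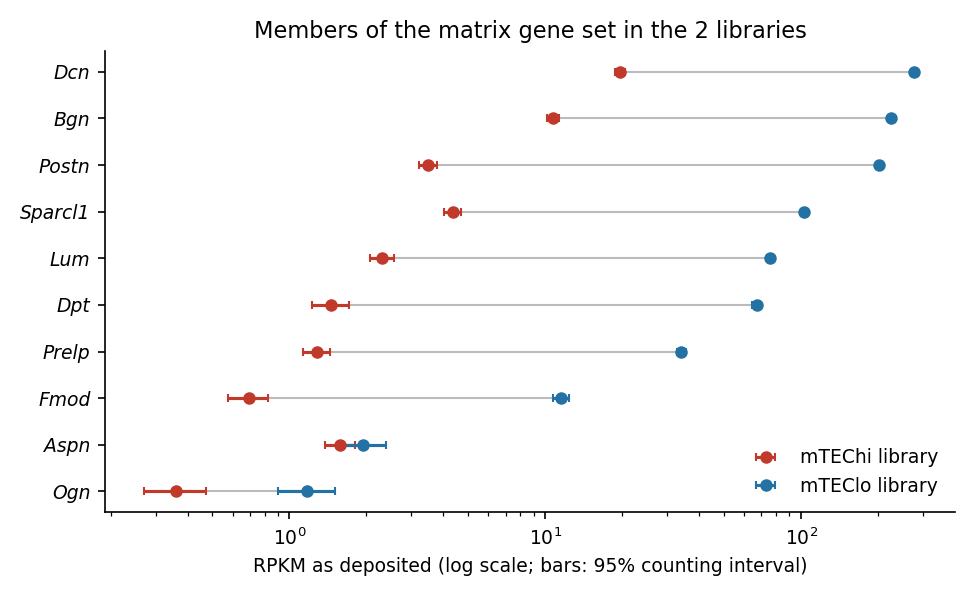
Deposited RPKM (horizontal log axis) of the 10 matrix genes in the mTEChi library (red) and the mTEClo library (blue), with bars for the 95% Poisson counting interval and 1 library per group. For 8 genes the points lie far apart, from Dcn with 19.5 against 276 RPKM to Fmod with 0.694 against 11.5 RPKM. Before scaling, the intervals of Aspn overlap and those of Ogn (0.360 against 1.17 RPKM) do not.

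Decorin and biglycan, a closely related pair with dermatan or chondroitin sulfate chains, were the most abundant members in both libraries. Dcn was listed at 19.5 RPKM in the mTEChi and 276 RPKM in the mTEClo library. That is 17.1-fold lower in mTEChi (16.3 to 17.9), a log2 change of -4.03 on the scale with 1 RPKM added. The other Dcn line, NM_001190451, had 19.6 against 268 RPKM, so both lines of the gene showed the same direction and nearly the same size. Bgn had 10.7 RPKM in the mTEChi and 225 RPKM in the mTEClo library, 25.3-fold lower (24.0 to 26.7). Asporin (Aspn), the third member of this class, whose core carries a run of aspartate residues, did not share this difference. It had 1.58 RPKM in the mTEChi and 1.95 RPKM in the mTEClo library, 1.49-fold lower (1.16 to 1.92), with a log2 change of -0.38 that lies inside the threshold. Its other line, NM_025711, had 1.57 against 1.93 RPKM.

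Lumican, PRELP and fibromodulin form the class of members that carry keratan sulfate or, in PRELP, no chain, and all 3 were lower in the mTEChi library. Lum, which shapes collagen fibrils in the cornea and skin, had 2.31 RPKM in the mTEChi and 75.8 RPKM in the mTEClo library, 39.7-fold lower (35.4 to 44.6). Prelp, which anchors basement membranes to the connective tissue beneath, had 1.28 against 34.1 RPKM, 32.1-fold lower (28.3 to 36.5). Fmod, a fibril regulator of tendon and cartilage, had 0.694 against 11.5 RPKM, 20.0-fold lower (16.6 to 24.5). The log2 change of Fmod with 1 RPKM added was -3.14, against -4.32 without it, because its mTEChi level lies below the added value.

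Osteoglycin (Ogn), of a further class of the family, was the least abundant member in both libraries. It had 0.360 RPKM in the mTEChi library, from about 106 reads, and 1.17 RPKM in the mTEClo library, from about 63 reads. The mTEChi reads may count both mates of a pair and were halved for the interval. The ratio was 3.92-fold lower in mTEChi (2.70 to 5.80), while the log2 change with 1 RPKM added was -0.83. The place of Ogn relative to 2-fold therefore depends on the pseudocount, and with 0.1 RPKM added its change was -1.72. Its level did not reach 2 RPKM in either library.

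Periostin, dermatopontin and SPARC-like 1 were all lower in the mTEChi library, the first pair by larger folds than any of the proteoglycans. Postn, a matrix protein that binds integrins and collagen, had 3.48 RPKM in the mTEChi and 202 RPKM in the mTEClo library. It was 70.0-fold lower (64.5 to 75.9), and its log2 change of -5.77 ranked 1 from the lowest of the 15590 kept genes. Its 3 transcript lines ran from 3.40 to 3.48 RPKM in mTEChi and from 196 to 202 RPKM in mTEClo, with log2 changes from -5.77 to -5.75. Dpt, which binds decorin and aids fibril assembly, had 1.46 against 67.2 RPKM, 55.7-fold lower (47.1 to 66.4), and ranked 3. Sparcl1, a relative of the collagen-binding protein SPARC, had 4.35 against 102 RPKM, 28.4-fold lower (26.3 to 30.8). The counting intervals of the folds of Postn and Dpt do not reach those of Lum, and those of Bgn and Sparcl1 do not reach that of Dcn.

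**Figure D2:**
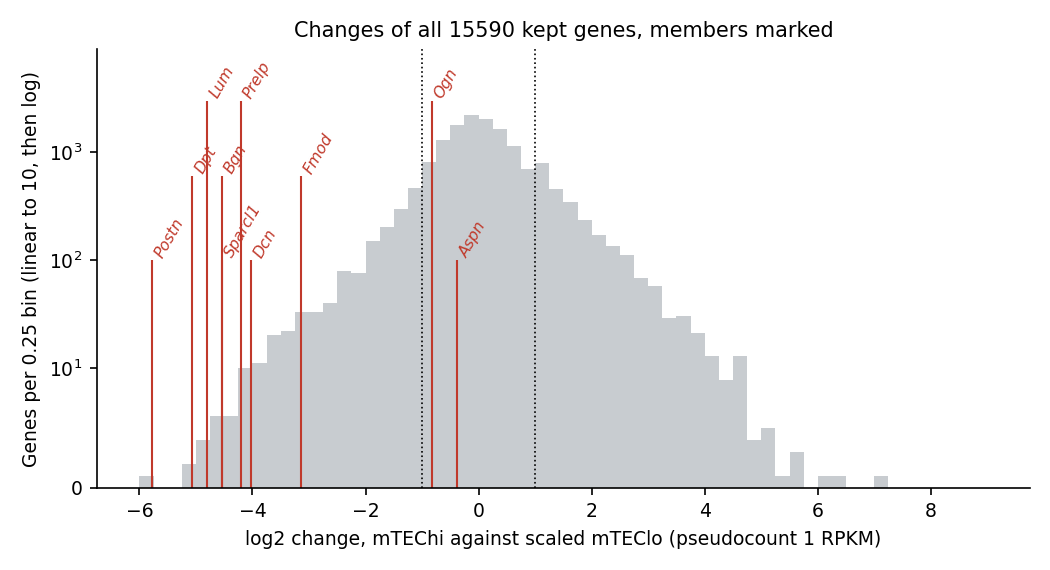
Number of genes per bin of log2 change (vertical axis linear to 10 genes, then log) for all 15590 kept genes, with the 10 matrix genes marked in red and dotted lines at 2-fold. Postn at -5.77 stands at the low end, 8 members lie at -3.14 or below, and Ogn (-0.83) and Aspn (-0.38) lie inside the dotted lines.

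Promoter windows from RefSeq (build GRCm38.p6, from 250 bases before to 50 bases after the start) were found for 7 of the 10 genes, with a pair of starts for Postn, 8 windows in all. Both strands were searched for 6 motifs, namely the TATA box with the letters TATAAA, the CAAT box with CCAAT, the Sp1 site with GGGCGG, the AP-1 site with TGANTCA, the E-box with CANNTG, and the CArG box. These windows come from a later build than the mm9 that the processing notes name, and no position in the deposited values was used. The 4 windows below are shown because they belong to the genes with the lowest changes (Postn, Dpt), to an abundant member (Bgn) and to the member that differed least (Aspn). Capitals mark TATAAA and GGGCGG on either strand.
Postn promoter, chr3:54360857-54361156, plus strand: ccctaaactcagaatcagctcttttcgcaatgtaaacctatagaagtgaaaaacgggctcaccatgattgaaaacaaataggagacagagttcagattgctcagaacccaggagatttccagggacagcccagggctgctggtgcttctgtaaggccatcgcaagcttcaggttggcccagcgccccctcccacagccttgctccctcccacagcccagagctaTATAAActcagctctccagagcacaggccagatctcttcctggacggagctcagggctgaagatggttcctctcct
Dpt promoter, chr1:164796413-164796712, plus strand: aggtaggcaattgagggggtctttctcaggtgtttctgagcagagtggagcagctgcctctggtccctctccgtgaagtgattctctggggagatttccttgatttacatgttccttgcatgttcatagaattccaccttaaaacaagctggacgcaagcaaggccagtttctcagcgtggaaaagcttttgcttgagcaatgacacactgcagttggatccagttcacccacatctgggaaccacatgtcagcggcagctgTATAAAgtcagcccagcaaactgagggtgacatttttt
Bgn promoter, chrX:73483351-73483650, plus strand: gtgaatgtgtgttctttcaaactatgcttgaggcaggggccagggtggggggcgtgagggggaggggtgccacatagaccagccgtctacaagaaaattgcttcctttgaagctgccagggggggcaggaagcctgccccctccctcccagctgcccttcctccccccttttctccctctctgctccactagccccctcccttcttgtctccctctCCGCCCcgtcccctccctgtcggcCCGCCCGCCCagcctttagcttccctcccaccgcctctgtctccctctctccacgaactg
Aspn promoter, chr13:49544193-49544492, plus strand: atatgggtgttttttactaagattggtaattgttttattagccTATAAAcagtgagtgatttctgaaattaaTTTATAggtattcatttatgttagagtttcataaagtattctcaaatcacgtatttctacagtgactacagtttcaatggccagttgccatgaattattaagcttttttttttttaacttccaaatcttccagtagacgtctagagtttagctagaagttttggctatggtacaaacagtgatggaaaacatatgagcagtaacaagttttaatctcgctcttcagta
In the second Postn window TATAAA begins 26 bases before the RefSeq start. In Dpt it begins 12 bases after the start. Bgn holds 3 matches to GGGCGG, all on the minus strand, of which a pair overlap, and no TATAAA, and 63.7% of its bases are G or C. The Aspn window holds 2 TATAAA matches, 1 on each strand, and 31.0% G or C. TATAAA was thus present in windows of genes that were much lower in mTEChi (Postn, Dpt) and of both genes that were not 2-fold lower (Aspn, Ogn), and 13.6% of all 32851 windows hold it. GGGCGG, present in 35.7% of all windows, was found in Bgn alone among the members' windows. TGANTCA (7.81% of all windows) and the CArG box (1.63%) matched no member window. CCAAT (37.4% of all windows) matched in Prelp, Fmod, Aspn and the first Postn window. The E-box letters, in 72.3% of all windows, were counted 7 times in Dpt and 0 times in either Postn window.

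The order of the members by level differed between the libraries. In mTEClo it ran Dcn, Bgn, Postn, Sparcl1, Lum, Dpt, Prelp, Fmod, Aspn and Ogn, and the counting intervals of no neighbours in that order overlapped. In mTEChi it ran Dcn, Bgn, Sparcl1, Postn, Lum, Aspn, Dpt, Prelp, Fmod and Ogn. There the intervals of Aspn and Dpt overlapped, as did those of Dpt and Prelp. Postn stood behind Sparcl1 in mTEChi and before it in mTEClo, and Aspn moved from the ninth place in mTEClo to the sixth in mTEChi. What remained in mTEChi, as a percentage of the scaled mTEClo level, ran from 1.43% for Postn and 1.80% for Dpt through 5.85% for Dcn to 25.5% for Ogn and 67.2% for Aspn. The members thus did not share 1 ratio within counting error. In bulk samples, fewer cells of a type and less RNA per cell cannot be told apart.

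Most small leucine-rich proteoglycan genes lie in 3 clusters, and genes of the same cluster differed from each other. On chromosome 10 the order is Dcn, Lum, Kera, Epyc. Dcn and Lum were 17.1-fold and 39.7-fold lower in mTEChi, whereas Epyc, epiphycan of cartilage, had 5.20 against 4.11 RPKM. Kera, keratocan of the cornea, had 0.723 RPKM in mTEChi and was listed at 0 in mTEClo, which places it under the filter. On chromosome 1 Optc, opticin of the eye, had 4.57 against 4.75 RPKM, while the adjacent Prelp and Fmod were 32.1-fold and 20.0-fold lower. On chromosome 13 the order is Ecm2, Aspn, Omd, Ogn, and all 4 were at most 3.57 RPKM. Ecm2, a leucine-rich matrix gene, was the lowest of them in mTEChi relative to mTEClo, with 0.315 against 3.57 RPKM and a log2 change of -2.01.

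**Figure D3:**
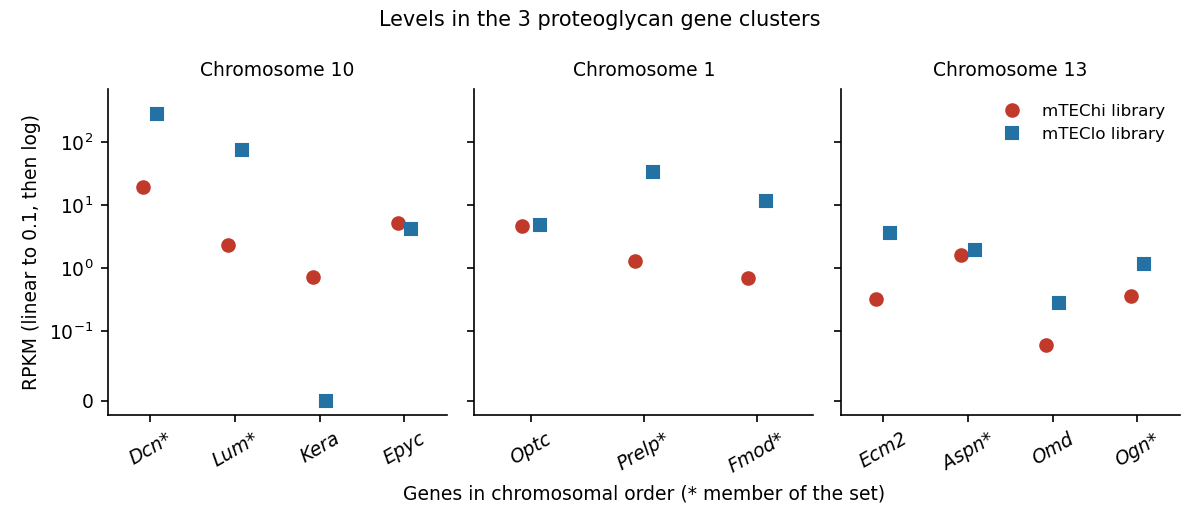
RPKM (vertical axis linear to 0.1, then log) of the genes of 3 proteoglycan clusters in chromosomal order, mTEChi in red circles and mTEClo in blue squares, with members of the set starred. Dcn, Lum, Prelp and Fmod are far apart between the libraries, while their cluster neighbours Epyc (5.20 against 4.11 RPKM) and Optc (4.57 against 4.75 RPKM) are not.

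The kept genes beside the members and outside the family were not 2-fold lower in mTEChi. Btg1 before Dcn had a log2 change of -0.14, Btg2 after Fmod -0.70, Atp1b1 before Dpt 0.84, Supt20 after Postn -0.11, Nudt9 beside Sparcl1 -0.09 and Haus7 before Bgn 0.29. Xcl1, on the other side of Dpt, had 12.9 RPKM in mTEChi and was listed at 0 in mTEClo. Trpc4, Dspp and Atp2b3, the remaining neighbours of Postn, Sparcl1 and Bgn, were under the filter. Nol8, after Ogn, had a change of -0.56.

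The libraries did not keep strand, so reads of opposite genes cannot be told apart. Aspn and Ogn lie within the span of Cenpp, a centromere protein gene on the opposite strand, in the GENCODE annotation. Cenpp had 1.58 against 2.04 RPKM, close to the 1.58 against 1.95 RPKM of Aspn. Exons of Cenpp and Aspn share 7 bases and those of Cenpp and Ogn share 0. The antisense RNA Gm15851 shares 350 exon bases with Prelp, while Gm32569 and Gm26703 overlap Dpt and Sparcl1 without a shared exon base. The part of opposite-strand reads in these values was not tested.

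Other genes of the family and of the same matrix were described from lists that were chosen with earlier results of these data known. Each count below stands beside shares over all kept genes of 9.35% lower and 16.1% higher. Of 11 other small leucine-rich proteoglycan genes 6 were kept, and 2 of these, Podn (0.566 against 3.44 RPKM) and Ecm2, were at least 2-fold lower. None was higher, and the median log2 change was -0.49. Ecm2 passed the filter only through mTEClo, so its direction is partly set by the filter. Among secreted relatives of Postn and Sparcl1 and other matricellular genes, 10 of 22 kept were lower and 4 higher, with a median of -0.61. Ccn2, a growth factor-binding matrix protein, had 2.23 against 35.7 RPKM (-3.77), Smoc2 3.23 against 37.2 RPKM (-3.44), Sparc 29.6 against 254 RPKM (-3.33) and Ccn1 46.4 against 319 RPKM (-3.03). The higher ones were Spp1, osteopontin, with 48.4 against 12.7 RPKM (1.60), Comp (1.15), Spock3 (1.14) and Ccn5. Ccn5 was listed at 0 in mTEClo, which places any kept gene past 2-fold.

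Collagens of fibrils and associated filaments, the partners of these proteoglycans, had 10 of 12 kept members lower and 0 higher, with a median of -2.43. Col1a2 had 1.39 against 41.2 RPKM (-4.41), Col3a1 3.18 against 72.5 RPKM (-4.40), Col6a2 14.2 against 224 RPKM (-4.16) and Col6a1 16.2 against 223 RPKM (-3.97). Enzymes and chaperones of collagen maturation had 13 of 20 kept genes lower and 1 higher (median -1.37). Serpinh1, the collagen chaperone HSP47, had 25.05 against 265 RPKM (-3.62), Pcolce, an enhancer of procollagen cleavage, 7.64 against 42.9 RPKM (-2.61), and Fkbp10 1.51 against 11.1 RPKM (-2.52). Pcolce2 was the higher one, with 7.04 against 2.08 RPKM (1.20).

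Enzymes that build the sugar chains of the proteoglycans differed less, with 5 of 28 kept genes lower, 1 higher and a median of -0.45. The lower ones included Chst14, a sulfotransferase of dermatan sulfate (0.851 against 6.42 RPKM, -2.24), and Dse, the epimerase that turns chondroitin into dermatan sulfate (1.55 against 5.09 RPKM, -1.48). Chpf, of the chondroitin polymerase, had 8.14 against 20.03 RPKM (-1.46). Chst1, a keratan sulfate sulfotransferase, was the higher one with 10.3 against 1.82 RPKM (1.82). B3gat3, which completes the linker that every such chain starts from, had 22.4 against 25.4 RPKM (-0.44).

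Among proteases that cleave these proteins and their inhibitors 8 of 15 kept were lower and 3 higher (median -1.18). Mmp3 had 0.581 against 16.4 RPKM (-3.72), Mmp2 2.89 against 32.3 RPKM (-3.37) and Adamts1 3.36 against 35.3 RPKM (-3.32). Timp4 was higher (1.39), as were Gzmb and Mmp13, both listed at 0 in mTEClo. TGF-beta ligands, latent binding proteins, receptors and targets had 8 of 21 lower and 1 higher (median -0.76). Eng, an accessory receptor of endothelium, had 1.35 against 35.4 RPKM (-4.22), Ltbp4 3.07 against 41.3 RPKM (-3.64) and Ltbp3 1.85 against 14.5 RPKM (-2.70). The receptor Tgfbr2 had 2.27 against 15.2 RPKM (-2.57), and the ligand Tgfb2 was higher (1.04). Receptors reported to bind members of the set had 3 of 15 lower and 2 higher, Cd14 (2.30) and P2rx4 (1.63). The shares over all kept genes were 9.35% lower and 16.1% higher. The receptors' median of -0.26 was 0.11 after matching the upper quartiles of both libraries, so it has no fixed sign. Mesenchymal transcription factors had 4 of 8 kept genes lower, Twist1 (-2.27), Osr1 (-2.04), Prrx1 (-1.97) and Tcf21 (-1.61), and 0 higher. Twist1, Prrx1 and Tcf21 passed the filter only through mTEClo, so their direction is partly set by the filter. The count of higher factors was 1 with 0.1 RPKM added, under each other scaling and with distinct lines summed. The median of these 8 was -0.95. A filter of 5 RPKM kept only 2 of them, 0 of these lower, with a median of 0.28.

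Most fibroblast, endothelial and mesothelial markers moved in the same direction as the matrix genes, and their part in the result was not tested. Fibroblast markers had 9 of 12 lower and 0 higher, a median of -1.99 and a summed level of 49.1 RPKM in mTEChi and 273 RPKM in mTEClo, with 0 markers at 0. With 5 RPKM added 6 of 12 were lower and the median was -0.95. Col1a1, Col1a2 and Col3a1 belong to this list and to the collagen list. Pdgfra, a receptor that marks thymic fibroblasts, had 0.369 against 5.01 RPKM, and Pdgfrb 4.03 against 3.98 RPKM. Pdgfra passed the filter only through mTEClo. Endothelial markers had 10 of 10 lower, a median of -2.86 and sums of 30.4 against 251 RPKM, with 0 at 0. Pericyte and smooth muscle markers had 5 of 11 lower and 2 higher, a median of -0.93 and sums of 231 against 561 RPKM. The lower ones included Tagln (30.5 against 232 RPKM, -3.16), Mcam (-2.92), Acta2 (32.0 against 198 RPKM, -2.86) and Des (-1.38). The higher ones were Rgs5 (1.07) and Cnn1, which was listed at 0 in mTEClo. Of 4 matched mesothelial markers 3 were lower, among them Upk3b with 1.57 against 24.5 RPKM (-3.58), while Msln had 95.8 against 64.9 RPKM.

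Lists for other possible sources differed. Tendon and cartilage markers, relevant to Fmod, had 2 of 6 kept lower, Scx (4.25 against 28.4 RPKM, -2.75) and Col2a1, and 1 higher, Tnmd (23.5 against 2.20 RPKM, 2.74), with Acan and Hapln1 at 0 in mTEClo. Schwann cell markers had 1 of 4 kept lower and sums of 7.06 against 5.66 RPKM. Macrophage markers had 5 of 5 matched members higher. Of 4 adipocyte markers 2 were kept, both higher. Adgre1 of macrophages (2.65 against 0.369 RPKM) and Cidec of adipocytes (6.62 against 0.478 RPKM) passed the filter only through mTEChi. Their direction is thus partly set by the filter. Immature mTEC markers had 3 of 8 lower, Ccl21a (354 against 3238 RPKM, -3.46), Pdpn (-2.28) and Itgb4 (-1.22), and a median of -0.72. The mTEC markers had 7 of 12 higher and 2 lower, Krt14 (-1.57) and Krt5 (-1.05), the latter inside 2-fold without scaling.

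**Figure D4:**
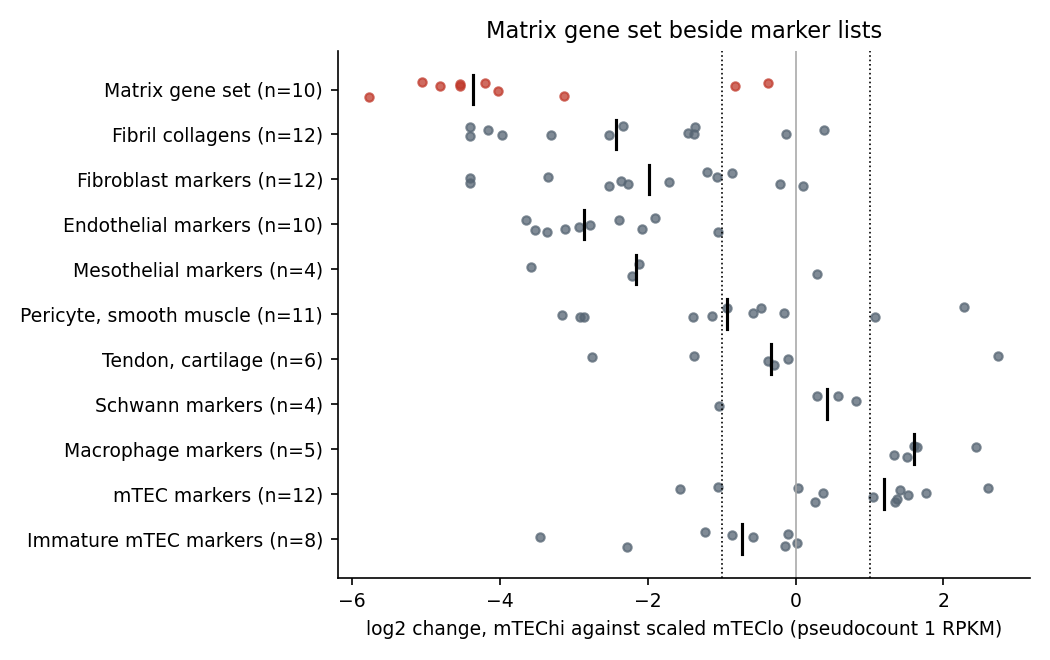
Log2 change of each kept gene (points) in the matrix gene set, in collagens and in 9 marker lists, with the median as a black bar and dotted lines at 2-fold. The median of the matrix set is -4.37, below those of endothelial (-2.86), collagen (-2.43) and fibroblast (-1.99) lists, and mTEC and macrophage markers lie mostly above 0. The members were chosen on this contrast, so nothing is read from the order of these medians.

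Beside the markers with the largest folds, Col1a2 of the fibroblast list (36.0-fold lower) and Emcn of the endothelial list (36.2-fold lower), Postn, Dpt and Lum had larger folds (70.0, 55.7 and 39.7). Prelp (32.1), Sparcl1 (28.4) and Bgn (25.3) had smaller ones. Emcn, with 0.429 RPKM in mTEChi, passed the filter only through mTEClo. With 1 RPKM added the order changed, and Sparcl1 and Bgn (both -4.54) then lay below Col1a2 (-4.41) and Emcn (-3.53). These are single values with no replicate, for members chosen on this contrast. Likeness to other genes was measured as the distance in log2(RPKM + 1) over the 2 libraries. Nearest to Postn were Igfbp7, a secreted IGF-binding protein relative (6.62 against 217 RPKM, distance 0.77), Sod3, the extracellular superoxide dismutase (1.15), Sult5a1 (1.42), Rcn3 (1.45) and Col3a1 (1.47). Nearest to Dcn were Serpinh1 (0.35), Col6a1 (0.40), Igfbp4 (0.49), the water channel gene Aqp1 (0.53) and Col6a2 (0.53). With 2 values a gene, this likeness says only that both levels were similar.

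**Figure D5:**
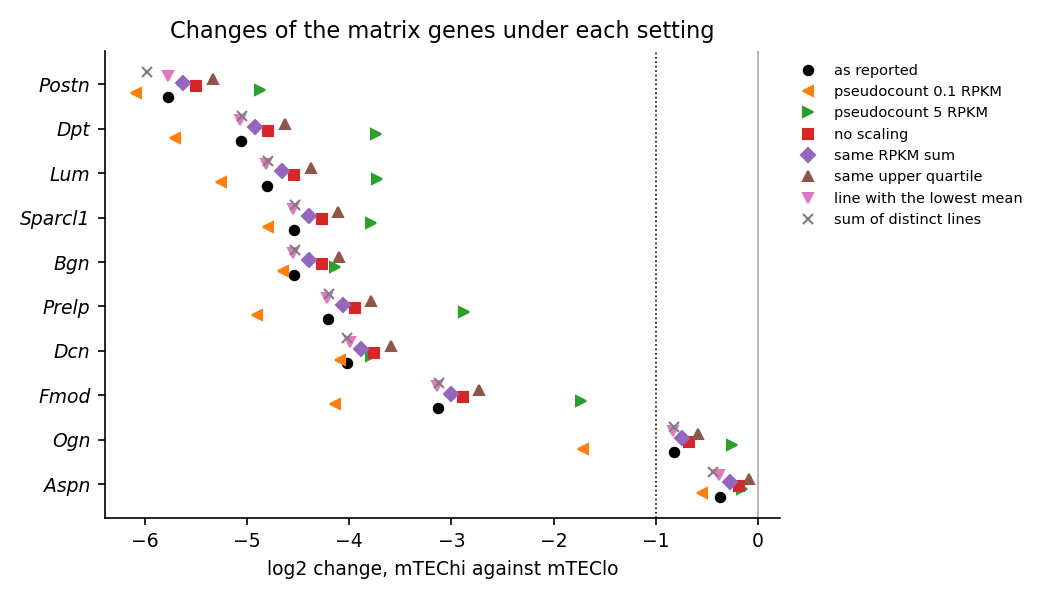
Log2 change of each matrix gene (horizontal axis) as reported (black) and under 7 other settings of pseudocount, scaling and transcript line, with a dotted line at 2-fold lower. The 8 lower genes stay left of the dotted line in each, Fmod coming closest at -1.73 with a pseudocount of 5 RPKM, while Ogn crosses it with 0.1 RPKM (-1.72).

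The size of the differences depended on the settings more than their direction did. Across 8 settings Postn ran from -6.09 to -4.87, Dpt from -5.70 to -3.74, Dcn from -4.09 to -3.59 and Fmod from -4.14 to -1.73. Aspn ran from -0.55 to -0.09. Without scaling the median change of all kept genes shifted by 0.22, and with the same upper quartile by 0.35, which is small beside the changes of the 8 lower members but not beside that of Aspn.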

How the data were processed

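Both libraries were made from poly(A)-selected RNA with a non-stranded TruSeq kit, per the labels' protocols. The deposited RPKM values were computed by the authors per RefSeq transcript line. Named in the submitters' processing notes, without roles, are build mm9, bedtools, CASAVA and Bowtie 1.0.0. Nothing used here states how reads shared by isoforms were counted. Of 30794 lines, 30212 got a symbol from the RefSeq table, 184 from GENCODE metadata, and 398 had no name and were left out.

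Each gene took the line with the highest mean RPKM. Scaling used genes with a mean of at least 10 RPKM, a mean of 0.5 RPKM kept a gene, and 2-fold was the threshold. The members and lists were chosen with earlier results of these data known. All 10 members were named. From each other list, genes past 2-fold (up to 4 a direction, largest first) and the 2 with the highest mean could be named. Names outside this rule (Pdgfra, Pdgfrb, Epcam, Acan, Hapln1, Adgre1, overlapping genes, and cluster genes under the filter) were chosen after their values were seen.

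RPKM times GENCODE transcript length rises in steps of 1 read. Of transcripts with 1 to 10 reads, 76.8% of 1637 (mTEChi) and 65.3% of 1059 (mTEClo) lay within 0.1 of a whole read. Between 2 and 9 reads, 599 transcripts were even and 347 odd in mTEChi, against 268 and 267 in mTEClo, so mates of a pair may be counted singly, and mTEChi reads were halved for every 95% interval. The procedure was run on simulated data that held counting noise only, which cannot test differences between libraries or read types. Alternatives were other pseudocounts, scalings, filters and transcript lines. Software was scipy 1.17.1, pandas 2.3.3, numpy 2.4.6 and matplotlib 3.10.9 under Python 3.11.15.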

Additional observations from a re-analysis of the deposited data

How the results depend on the processing

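The count of members at least 2-fold lower stayed at 8 under each alternative, except 9 with a pseudocount of 0.1 RPKM, where Ogn passed. Their median log2 change of -4.37 was -4.72 (pseudocount 0.1 RPKM), -3.73 (pseudocount 5 RPKM), -4.10 without scaling, -4.23 with the same RPKM sum, -3.94 with the same upper quartile and -4.54 with a filter of 5 RPKM. The share of all kept genes at least 2-fold lower, 9.35%, was 4.16% (pseudocount 5 RPKM) and 5.38% (same upper quartile), and the share at least 2-fold higher, 16.1%, was 5.63% (pseudocount 5 RPKM). Of 70 single-gene values under alternatives, 37 moved by more than the distance from the middle of the counting interval to its end. That interval is of the log2 ratio without added RPKM. The other 33 did not, and 0 changed sign. With 5 RPKM added 7 collagens of fibrils and filaments were lower in place of 10, 9 collagen maturation genes in place of 13 and 8 endothelial markers in place of 10. With the same upper quartile 10 collagen maturation genes were lower, and without scaling 7 fibroblast markers in place of 9. Counts in lists of weakly expressed genes depended on the pseudocount. With 0.1 or 5 RPKM added, 10 or 2 sugar-chain enzymes were lower in place of 5, and 6 or 0 receptors in place of 3. With 5 RPKM added, 1 of the mesenchymal transcription factors was lower in place of 4, 0 other proteoglycan genes in place of 2, and 1 matricellular gene was higher in place of 4, 0 proteases or inhibitors in place of 3 and 3 macrophage markers in place of 5. With the same upper quartile 3 pericyte and smooth muscle markers were lower in place of 5, and 3 sugar-chain enzymes. Without scaling 1 mesenchymal transcription factor was higher in place of 0, and 1 mTEC marker was lower in place of 2. A filter of 5 RPKM kept 10 sugar-chain enzymes, of which 1 was lower, in place of 5 of 28. It kept 2 mesothelial markers, of which 1 was lower, in place of 3 of 4. No paired analysis was possible because each group has 1 library, and no library could be left out. Depth limits Ogn and Aspn, with 63 and 95 reads in mTEClo, and Ogn also in mTEChi, with 106 reads before halving.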
